A study of Homo sapiens with 48 samples.

Results

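The mitochondrial ribosomal protein genes were taken as every gene whose symbol begins with MRPL or MRPS followed by a digit. This rule, which uses no measured value, found 78 of the 12256 genes in the deposited tables, 49 named MRPL and 29 named MRPS. All 78 had values in total cytoplasmic RNA, and 75 had values in ribosome-protected fragments (RPFs), the stretches of mRNA shielded by ribosomes in Ribo-seq. MRPL30, MRPS17 and MRPS24 had total RNA values only. No filter on low values was added to the deposited tables.

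The cells were SW480, an established line from a human colorectal adenocarcinoma, transduced with a lentiviral vector that expresses an shRNA when doxycycline (DOX) is present. Selected pools of cells, not single clones, carried a non-targeting shRNA (shCTRL) or an shRNA against EIF2B1 (shEIF2B1) or EIF2B4 (shEIF2B4), which encode the alpha and delta subunits of eIF2B, the factor that recharges the initiation factor eIF2 with GTP. Uninduced cells of each line received DMSO (-DOX), and induced cells received DOX at 1 µg/ml over 5 days (+DOX). Every group had 4 replicates run in separate weeks, so 24 lysates gave 24 RPF and 24 total RNA libraries. The +DOX groups of all 3 lines shared exposure to DOX, so the change in shCTRL measures DOX together with a non-targeting shRNA.

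The mitoribosome translates the few mRNAs encoded by mitochondrial DNA, all of which encode subunits of the oxidative phosphorylation complexes. Its rRNAs are mitochondrial transcripts, but its proteins are encoded in the nucleus, translated in the cytosol and imported. Many of these proteins descend from bacterial ribosomal proteins and others are found only in mitochondria. Doxycycline belongs to the tetracyclines, which bind bacterial ribosomes and are also known to inhibit mitochondrial translation. Of the 78 genes, 51 encode proteins of the large subunit and 26 of the small subunit. MRPS18A and MRPS30 are counted with the large subunit, where their proteins lie in spite of their names. MRPS36 was in neither list, since its protein is a component of the 2-oxoglutarate dehydrogenase complex.

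Stretches of coding sequence are printed for the members at either end of the translation efficiency response to shEIF2B1, because the RPF results are later set beside base composition at the third base of codons. Both are whole coding sequences of the transcript that the tables list, read from GENCODE v29 on GRCh38 and therefore wholly exonic. MRPS33 (a small-subunit protein without a bacterial counterpart) lies on chromosome 7, 141002610 to 141015228, minus strand. MRPL34 (a large-subunit protein with a bacterial counterpart) lies on chromosome 19, 17292609 to 17306843, plus strand. Capitals mark a G or C at the third base of a codon, which is the case in 44 of 97 codons of MRPS33 (45.4%) and in 78 of 93 codons of MRPL34 (83.9%).
MRPS33: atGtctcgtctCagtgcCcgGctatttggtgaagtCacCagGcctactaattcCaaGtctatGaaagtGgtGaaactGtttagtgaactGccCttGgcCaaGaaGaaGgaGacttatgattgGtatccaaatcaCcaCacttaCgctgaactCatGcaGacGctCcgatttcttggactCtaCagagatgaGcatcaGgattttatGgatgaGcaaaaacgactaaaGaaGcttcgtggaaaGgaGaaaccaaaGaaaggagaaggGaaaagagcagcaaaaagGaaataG
MRPL34: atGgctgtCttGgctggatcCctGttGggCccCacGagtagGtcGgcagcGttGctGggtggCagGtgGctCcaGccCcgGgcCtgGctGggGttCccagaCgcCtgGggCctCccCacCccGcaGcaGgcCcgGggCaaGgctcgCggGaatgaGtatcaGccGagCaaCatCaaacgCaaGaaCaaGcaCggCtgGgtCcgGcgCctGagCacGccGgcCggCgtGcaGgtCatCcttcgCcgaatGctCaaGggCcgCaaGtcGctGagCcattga

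Promoters are printed for 3 members whose total RNA is described later. They were taken from RefSeq on GRCh38.p14, as 250 bases before to 50 bases after the start site, and were chosen after their values were seen. MRPL27, with the largest fall in the shEIF2B4 line, has its window at chr17:50373135-50373434 on the minus strand. MRPS11 (chr15:88467458-88467757, plus strand) and MRPL46 (chr15:88467339-88467638, minus strand) are divergent neighbours whose windows overlap. Capitals mark matches on either strand to an ETS motif bound by NRF-2 (also called GABP), CCGGAAG, or to a YY1 motif, AAGATGGCG. NRF-2, NRF-1 and YY1 are known regulators of nuclear genes for mitochondrial proteins.
MRPL27: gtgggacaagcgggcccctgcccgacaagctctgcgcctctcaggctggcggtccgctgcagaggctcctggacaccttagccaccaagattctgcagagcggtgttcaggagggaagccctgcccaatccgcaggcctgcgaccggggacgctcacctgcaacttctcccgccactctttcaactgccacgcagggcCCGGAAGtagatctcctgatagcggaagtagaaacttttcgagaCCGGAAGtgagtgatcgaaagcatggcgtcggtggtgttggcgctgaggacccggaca
MRPS11: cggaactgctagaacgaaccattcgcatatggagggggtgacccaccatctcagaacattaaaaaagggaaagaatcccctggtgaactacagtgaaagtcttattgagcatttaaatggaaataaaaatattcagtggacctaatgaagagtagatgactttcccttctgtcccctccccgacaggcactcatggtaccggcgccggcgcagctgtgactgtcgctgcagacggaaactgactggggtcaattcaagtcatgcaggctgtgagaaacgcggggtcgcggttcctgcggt
MRPL46: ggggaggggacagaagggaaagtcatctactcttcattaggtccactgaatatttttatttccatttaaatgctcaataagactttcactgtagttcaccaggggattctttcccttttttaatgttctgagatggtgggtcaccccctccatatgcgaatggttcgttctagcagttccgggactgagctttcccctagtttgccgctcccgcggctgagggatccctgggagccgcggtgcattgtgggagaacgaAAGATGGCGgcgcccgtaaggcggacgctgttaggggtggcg

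RefSeq held 85 promoter windows for 69 of the members. The others were MRPS36, MRPL23, MRPS28, MRPL10, MRPL13, MRPL35, MRPL21, MRPL2 and MRPL15. The ETS motif was in 38.8% of the members' windows, in 17.5% of the 14220 windows of genes in the total RNA table and in 10.3% of all 35116 windows. The YY1 motif was in 15.3% of the members' windows, against 3.52% and 1.75% of the other sets. The NRF-1 motif, searched as GCGCATGCG, was in 3.53%, 3.15% and 1.92%. The 3 motifs were searched on both strands, where an ETS match can share its last 3 bases with the start of a YY1 match. Any of them was present in 50.6% of the members' windows, 22.4% of those of table genes and 13.1% of all windows. MRPL27 held 2 ETS matches, MRPL46 a single YY1 match and MRPS11 none of the 3. A match is a run of letters and was not tested as a binding site.

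The epithelial markers KRT8, KRT18, KRT19 and EPCAM lay between the 82.9th and 99.3rd percentile of genes in total RNA, while CDH1 was at the 6.32nd and VIL1 was not listed. Of the leukocyte, endothelial and fibroblast markers, CD68 was listed (10.7th percentile) and PTPRC, CD3E, PECAM1, VWF, COL1A1, COL1A2 and DCN were not. The response to a knockdown is the +DOX against -DOX change in that line minus the change in shCTRL, fitted with limma and called at an adjusted p under 0.1. EIF2B1 fell in response to shEIF2B1 by 0.67 in total RNA (log2, SE 0.15, limma adjusted p = 0.0263) and by 0.53 in RPFs (SE 0.13, adjusted p = 0.0109). EIF2B4 fell in response to shEIF2B4 by 0.49 in total RNA (SE 0.14, adjusted p = 0.0634), and its RPF response of -0.48 did not pass (SE 0.19, adjusted p = 0.236). RPFs of ATF4 and DDIT3, the transcription factors of the integrated stress response, rose by 1.02 and 1.49 in response to shEIF2B1, and by 0.76 and 1.73 in response to shEIF2B4.

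The deposited values are regularized log2 values without read counts, so the depth behind each gene is unknown. Levels between genes were compared only as log2 RPF value per kilobase of coding sequence, in uninduced shCTRL cells. The median of the 74 members with a coding length was 9.82 (interquartile range 9.45 to 10.4), against 6.55 over 10847 genes. The median was 9.96 in the large subunit and 9.80 in the small subunit, and 13.5 in cytosolic ribosomal proteins. MRPL41 (11.90 ± 0.21, SD, n = 4), MRPS6 (11.71 ± 0.28) and MRPL57 (11.61 ± 0.12) had the highest levels per kilobase. These neighbours differed by less than their spread over replicates. MRPL46 (7.02 ± 0.24), MRPL1 (7.06 ± 0.49) and MRPL44 (7.74 ± 0.35) had the lowest. MRPL44 stood above MRPL46 by more than either SD, while MRPL46 and MRPL1 did not differ beyond their spread.

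Total RNA of these genes was lower in +DOX than in -DOX cells in all 3 lines. In shCTRL the mean log2 value over the 78 genes was 9.50 ± 0.10 in -DOX and 9.34 ± 0.06 in +DOX cells (SD, n = 4). In shEIF2B1 it was 9.50 ± 0.05 and 9.24 ± 0.08, and in shEIF2B4 9.49 ± 0.09 and 9.26 ± 0.04. The +DOX mean was below the -DOX mean of its week in 11 of 12 line-week pairs, the exception being shCTRL in week 1, with 9.37 in -DOX and 9.41 in +DOX cells. In these bulk lysates, fewer cells that express a gene and less RNA per cell cannot be told apart.

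**Figure D1:**
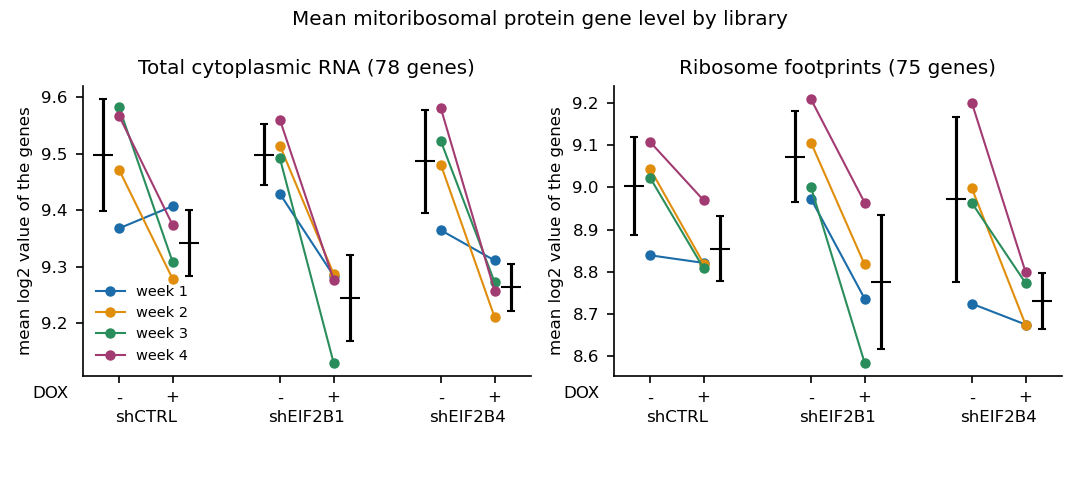
Mean log2 value of the mitoribosomal protein genes in each library, for total RNA (left, 78 genes) and RPFs (right, 75 genes), by line and DOX. Coloured lines join libraries of the same week, and black marks give the mean and SD of 4 replicates. In total RNA the +DOX means lie near 9.24 to 9.34 against 9.49 to 9.50 without DOX.

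In shEIF2B1 cells, total RNA of 44 of 78 members fell and none rose, with a median change of -0.24 on the log2 scale. Over all genes 16.8% were called lower and the median was -0.01. In shEIF2B4 cells 43 fell and none rose, with a median of -0.23, against 16.3% called lower and a median of 0.00 over all genes. In shCTRL cells 3 fell and none rose (2.18% of all genes were called lower), 35 had an unadjusted p under 0.05, and the median was -0.16, against 0.00 over all genes. The number below 0 was 74 in shCTRL, 75 in shEIF2B1 and 75 in shEIF2B4. Of the 78 members, 70 (89.7%) were below 0 in all 3 lines, against 30.3% of all genes, and no member was above 0 in all 3. In both knockdown lines 30 members fell (38.5%, against 9.24% of all genes), and 57 fell in at least one of them. The members above 0 in any line were MRPL20, MRPL24, MRPL48, MRPS10, MRPS16, MRPS21, MRPS27 and MRPS35.

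These counts depended on single weeks. Without replicate 1 the shCTRL count was 47 in place of 3, and it was 3, 0 and 0 without replicates 2, 3 and 4. In shEIF2B1 the count was 29, 57, 26 and 26 without replicates 1 to 4, and in shEIF2B4 it was 48, 17, 42 and 21. The sign of the median was the same in each of these fits.

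**Figure D2:**
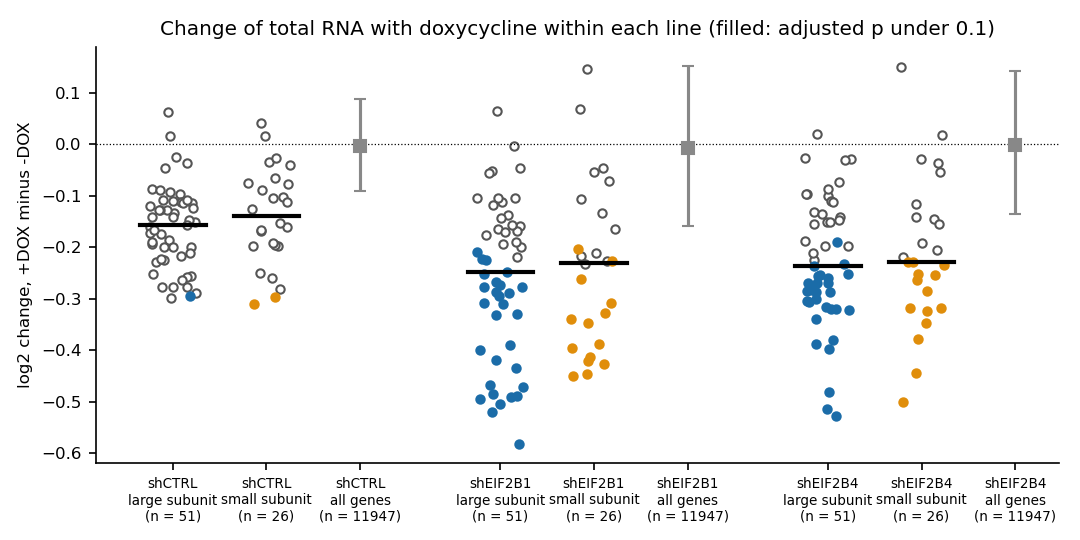
Log2 change of total RNA (+DOX minus -DOX) within each line for every mitoribosomal gene of the large and small subunit. Filled points are called at an adjusted p under 0.1, black bars are medians, and grey squares give the median and quartiles of all genes. Members lie mostly below 0 in each line, while the medians of all genes lie at -0.01 to 0.00.

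Members of both subunits fell, beside 16.8% of all genes called lower in shEIF2B1 and 16.3% in shEIF2B4. In the large subunit 29 of 51 members fell in shEIF2B1 (median -0.25) and 28 in shEIF2B4 (-0.24). In the small subunit 14 of 26 fell in each of these lines (medians -0.23 and -0.23). Large-subunit proteins with a bacterial counterpart had 20 and 18 of 30 called lower, and those specific to mitochondria 9 and 10 of 21. In the small subunit these counts were 8 and 9 of 16 with a counterpart, and 6 and 5 of 10 without. Of the stalk proteins, which recruit translation factors to the large subunit, MRPL12 fell by 0.39 in shEIF2B1 and by 0.48 in shEIF2B4, and MRPL11 fell by 0.25 and 0.30. MRPL10, the protein that anchors the stalk, had changes of -0.11 and -0.10 that were not called. At the exit of the peptide tunnel MRPL17 fell by 0.28 and 0.27 and MRPL47 fell by 0.48 and 0.32 in shEIF2B1 and shEIF2B4. MRPL23 fell by 0.34 in shEIF2B4, and its change of -0.16 in shEIF2B1 was not called. MRPL22, MRPL24 and MRPL45, which anchors the mitoribosome to the inner membrane, had changes between -0.20 and -0.05 that were not called in either line.

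MRPL49, a mitochondrion-specific protein of the large subunit, had the largest fall in shEIF2B1 and was picked for that after its values were seen. Its log2 total RNA in weeks 1 to 4 was 9.62, 9.68, 9.75 and 9.53 in shEIF2B1 -DOX cells and 9.11, 9.12, 9.03 and 8.99 in +DOX cells. In shEIF2B4 it was 9.50, 9.70, 9.69 and 9.48 without DOX and 9.29, 8.79, 9.09 and 9.13 with DOX. In shCTRL it was 9.55, 9.68, 9.83 and 9.56 without and 9.47, 9.28, 9.28 and 9.54 with DOX. Every +DOX value was below every -DOX value of its line, narrowly so in shCTRL. The fall was 0.58 in shEIF2B1 (SE 0.09, limma adjusted p = 0.000475) and 0.52 in shEIF2B4 (SE 0.10, adjusted p = 0.00222), and the change of -0.26 in shCTRL was not called (SE 0.09, adjusted p = 0.138).

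MRPL27, a large-subunit protein with a bacterial counterpart, had the largest fall in shEIF2B4. Its log2 total RNA there was 8.51, 8.78, 9.20 and 9.10 without DOX and 8.36, 8.43, 8.42 and 8.24 with DOX. In shEIF2B1 it was 8.77, 8.94, 8.79 and 9.00 without and 8.36, 8.83, 8.08 and 8.34 with DOX. The groups did not overlap in shEIF2B4 and overlapped in shEIF2B1 through the +DOX library of week 2. The falls were 0.53 (SE 0.11, limma adjusted p = 0.00244) and 0.47 (SE 0.11, adjusted p = 0.00556), beside a change of -0.20 in shCTRL that was not called (adjusted p = 0.24).

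MRPL36, a short large-subunit protein with a bacterial counterpart, was among the 3 members called in shCTRL. Its log2 total RNA was 9.40, 9.70, 9.92 and 9.71 without DOX and 9.39, 9.34, 9.39 and 9.42 with DOX. The +DOX libraries were nearly level, and the week 1 library without DOX was as low as they were. It fell by 0.30 (SE 0.08, limma adjusted p = 0.0966). MRPS18C, one of the paralogous bS18 proteins of mitochondria, also fell by 0.30 in shCTRL (SE 0.08, adjusted p = 0.091). Its values were 9.59, 9.75, 9.88 and 10.03 without and 9.54, 9.47, 9.45 and 9.61 with DOX, which overlap through the last of these. MRPS17, seen in total RNA only, fell by 0.31 (SE 0.09, adjusted p = 0.0979), but was lower in 3 of 4 weeks. In shEIF2B1 and shEIF2B4 the falls were 0.28 and 0.29 for MRPL36, 0.39 and 0.32 for MRPS18C, and 0.45 and 0.32 for MRPS17.

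The divergent pair MRPS11 and MRPL46, of the small and large subunit, fell by 0.34 and 0.22 in shEIF2B1 and by 0.23 and 0.29 in shEIF2B4. Both had changes in shCTRL that were not called, -0.25 for MRPS11 and -0.26 for MRPL46. The median change of the 30 members with an ETS match was -0.15 in shCTRL, -0.18 in shEIF2B1 and -0.22 in shEIF2B4. For the 32 members with a promoter window that matched none of the 3 motifs these medians were -0.14, -0.26 and -0.23. MRPS22, MRPS33 and MRPL18 were in both groups, since each had windows with and without an ETS match.

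Cytosolic ribosomal proteins had medians of 0.01, 0.09 and -0.01 in total RNA of shCTRL, shEIF2B1 and shEIF2B4, and 21.9% of the 73 genes were below 0 in all 3 lines. Nuclear-encoded subunits of oxidative phosphorylation had medians of -0.07, -0.17 and -0.16, with 62.2% of 82 below 0 in all 3 lines. Of 5 mitoribosomal proteins named otherwise, PTCD3 (a small-subunit protein) fell by 0.45 in shEIF2B1 and by 0.30 in shEIF2B4. AURKAIP1 fell by 0.33 in shEIF2B4, and CHCHD1 by 0.27 in shEIF2B1. Over all genes tested 16.8% were called lower in shEIF2B1 and 16.3% in shEIF2B4, and the shares of the mitochondrial translation factors were near these. Of 17 such factors 2 fell in shEIF2B1, and in shEIF2B4 2 fell and LRPPRC, which stabilises mitochondrial mRNAs, rose by 0.32. Its partner SLIRP fell by 0.39 and 0.31. Of 23 assembly factors 10 fell and none rose in shEIF2B1, and 6 fell and NSUN4, an rRNA methyltransferase, rose by 0.35 in shEIF2B4.

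The test of whether a knockdown line changed more than shCTRL is the response. In total RNA 1 of 78 members was called in response to shEIF2B1, with a median of -0.09 and 62 below 0, and 1.13% of all genes were called lower. A further 1 was called in response to shEIF2B4, with a median of -0.08 and 57 below 0, and 1.62% of all genes were called lower. No member was called in the difference between the responses (limma, with 7 at an unadjusted p under 0.05). The larger counts in the knockdown lines than in shCTRL were therefore not matched by a called difference for most genes. Both responses share the shCTRL libraries.

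MRPS27, a pentatricopeptide repeat protein of the small subunit, was the member called in response to shEIF2B1. Its log2 total RNA was 10.02, 10.01, 9.93 and 9.96 in shEIF2B1 without DOX and 9.78, 9.42, 9.49 and 9.54 with DOX. In shCTRL it was 9.81, 9.83, 9.52 and 9.78 without and 9.99, 9.69, 9.47 and 9.96 with DOX. The groups were apart in shEIF2B1 and overlapped in shCTRL. Before induction, shEIF2B1 cells lay above shCTRL cells in each week, and that gap enters the response. The response was -0.46 (SE 0.12, limma adjusted p = 0.0595), in the same direction in 4 of 4 weeks, and it was -0.26 for shEIF2B4 (adjusted p = 0.275).

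MRPL12 was called in response to shEIF2B4. Its log2 total RNA was 9.87, 9.98, 10.27 and 10.05 in shEIF2B4 without DOX and 9.62, 9.54, 9.53 and 9.55 with DOX. In shCTRL it was 9.70, 9.78, 9.96 and 9.86 without and 9.77, 9.62, 9.78 and 9.70 with DOX. The groups were apart in shEIF2B4 and overlapped in shCTRL. Uninduced shEIF2B4 cells lay above uninduced shCTRL cells in each week, and that gap enters the response. The response was -0.37 (SE 0.10, limma adjusted p = 0.0565), lower in 4 of 4 weeks, beside -0.28 for shEIF2B1 (adjusted p = 0.3).

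RPFs of the members were also lower with DOX, but with more spread between genes. The mean over the 75 genes was 9.00 ± 0.12 in -DOX and 8.85 ± 0.08 in +DOX cells of shCTRL (SD, n = 4). It was 9.07 ± 0.11 and 8.78 ± 0.16 in shEIF2B1, and 8.97 ± 0.20 and 8.73 ± 0.07 in shEIF2B4. In shEIF2B1 48 members fell and MRPL20 rose (26.7% and 22.7% of all genes were called lower and higher), with a median of -0.27. In shEIF2B4 24 fell and none rose, with a median of -0.22 (23.8% of all genes were called in either direction, 1337 of 11145 lower), and in shCTRL 14 fell, with a median of -0.16 (4.62% called lower). Of the 75 members, 59 (78.7%) were below 0 in all 3 lines, against 26.0% of all genes.

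The RPF counts rested on the week block, and those of shCTRL and shEIF2B4 also on single weeks. Without the replicate block 6, 0 and 0 members were called in shEIF2B1, shEIF2B4 and shCTRL. Without replicate 1 the shCTRL count was 37 and without any other replicate it was 0, and in shEIF2B4 it was 46, 3, 11 and 2 without replicates 1 to 4. In shEIF2B1 the count lay between 41 and 45 whichever replicate was left out. RPFs of cytosolic ribosomal proteins had medians of -0.41, -0.46 and -0.32 in shCTRL, shEIF2B1 and shEIF2B4, with 42, 65 and 33 of 73 called lower.

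In response to shEIF2B1, 21 of 75 members fell and 2 rose in RPFs, with a median of -0.13 and a range of -0.76 to 0.57. Over all genes 15.3% were called lower and 27.3% in either direction (1335 of 11145 higher), with a median of -0.01. The members called lower were MRPL3, MRPL13, MRPL16, MRPL24, MRPL32, MRPL33, MRPL35, MRPL39, MRPL44, MRPL47, MRPL51, MRPS6, MRPS9, MRPS10, MRPS22, MRPS23, MRPS27, MRPS31, MRPS33, MRPS35 and MRPS36. MRPL34 and MRPL43 were called higher. In response to shEIF2B4 only MRPL33 was called, with 0.870% of all genes called lower and 1.88% higher, and the median was -0.09. The difference between the responses was called for no member (limma, with 3 at an unadjusted p under 0.05).

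The member median of the shEIF2B1 response was -0.22, -0.01, -0.29 and -0.07 in weeks 1 to 4, and that of the shEIF2B4 response was -0.02, -0.08, 0.05 and -0.23. The 23 calls became 8, 23, 15 and 13 without replicates 1 to 4 and 0 without the replicate block. For shEIF2B4 the count was 10 without replicate 1 and 0 without any other.

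**Figure D3:**
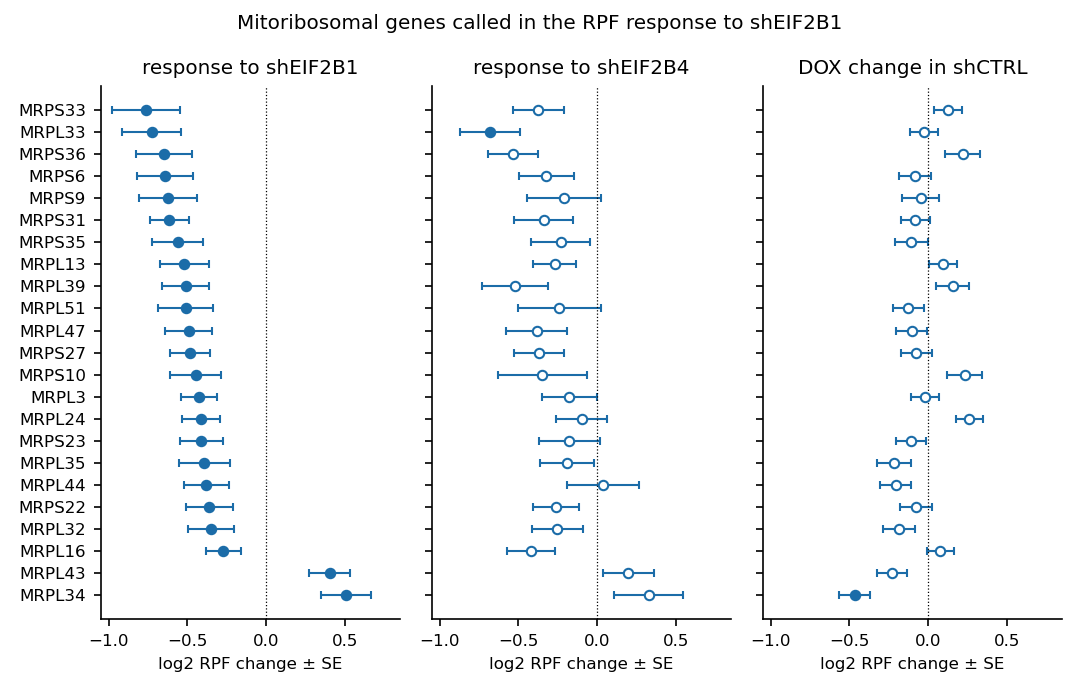
RPF response to shEIF2B1, RPF response to shEIF2B4 and RPF change with DOX in shCTRL (log2, ± SE) for the 23 members called in the first of these. Filled points are called at an adjusted p under 0.1. Of these genes only MRPL33 is filled in the shEIF2B4 panel.

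By role, the large subunit had 11 members called lower and 2 higher of 50 in response to shEIF2B1, and the small subunit 9 lower of 24. Over all genes 15.3% were called lower and 27.3% in either direction, and the counts below stand beside these shares. Small-subunit proteins specific to mitochondria had 6 of 10 called lower with a median of -0.39, and those with a bacterial counterpart 3 of 14 with a median of -0.10. In the large subunit the counts were 8 lower and 1 higher of 29 with a counterpart and 3 lower and 1 higher of 21 without. None of the 3 stalk proteins was called, with responses of 0.09 for MRPL10, -0.04 for MRPL11 and -0.27 for MRPL12. At the tunnel exit MRPL24 fell by 0.41 and MRPL47 by 0.49, while MRPL17, MRPL22, MRPL23 and MRPL45 lay between -0.13 and 0.00.

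MRPS33 had the largest RPF fall in response to shEIF2B1. Its log2 RPF values were 8.01, 8.78, 8.14 and 9.02 in shEIF2B1 without DOX and 7.36, 8.16, 7.05 and 8.84 with DOX. In shCTRL they were 7.08, 7.99, 7.86 and 8.18 without and 7.30, 8.14, 7.84 and 8.33 with DOX. In shEIF2B4 they were 7.09, 8.45, 8.13 and 8.84 without and 7.24, 8.07, 7.96 and 8.25 with DOX. The shEIF2B1 groups overlapped across weeks, but within each week the +DOX library was lower. The response was -0.76 (SE 0.22, limma adjusted p = 0.0197) to shEIF2B1 and -0.37 (SE 0.16, adjusted p = 0.266) to shEIF2B4. Uninduced shEIF2B1 cells lay above uninduced shCTRL cells in each week, and that gap enters the response.

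MRPL33, a short protein of the large subunit with a bacterial counterpart, was the member called in both RPF responses. In shEIF2B1 its values were 8.26, 8.59, 8.12 and 8.97 without and 7.18, 8.13, 6.95 and 8.67 with DOX. In shEIF2B4 they were 7.59, 8.65, 8.46 and 9.29 without and 6.63, 8.17, 7.98 and 8.39 with DOX. In shCTRL they were 7.45, 8.49, 7.86 and 8.75 without and 7.42, 8.53, 7.76 and 8.73 with DOX. The +DOX library was the lower of its week in both knockdown lines throughout, and the shCTRL values were nearly level. Uninduced MRPL33 values of both knockdown lines lay above those of shCTRL in each week, and that gap enters the responses. The responses were -0.73 (SE 0.19, limma adjusted p = 0.0122) and -0.68 (SE 0.19, adjusted p = 0.0889), of which the second was lost without replicate 2, 3 or 4.

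MRPS6, a small-subunit protein with a bacterial counterpart, had RPF values of 10.39, 10.46, 10.54 and 10.84 in shEIF2B1 without DOX and 9.41, 10.18, 9.41 and 10.32 with DOX. In shCTRL they were 9.92, 10.34, 10.36 and 10.61 without and 9.58, 10.54, 10.22 and 10.54 with DOX. The groups were apart in shEIF2B1 and overlapped in shCTRL. As for MRPS33, uninduced shEIF2B1 cells lay above uninduced shCTRL cells in each week, and that gap enters the response. The response was -0.64 (SE 0.18, limma adjusted p = 0.0174). MRPS36 and MRPS9, the latter a small-subunit protein with a bacterial counterpart, fell by 0.65 and 0.62 (adjusted p = 0.0164 and 0.0258).

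MRPL34 and MRPL43 were the members called higher. RPF values of MRPL34 were 7.85, 7.80, 7.86 and 7.69 in shEIF2B1 without and 8.13, 7.76, 7.63 and 7.82 with DOX. In shCTRL they were 8.43, 8.14, 8.42 and 7.69 without and 7.85, 7.80, 7.73 and 7.43 with DOX. The shEIF2B1 values were thus nearly level, and the shCTRL values were lower with DOX in each week. Uninduced shEIF2B1 cells lay below uninduced shCTRL cells in all weeks but the last, where they were level. That gap enters the response. The response was 0.51 (SE 0.16, limma adjusted p = 0.0337), made of a change of 0.04 in shEIF2B1 that was not called (adjusted p = 0.797) and a fall of 0.47 in shCTRL (SE 0.10, adjusted p = 0.0421). For MRPL43, a mitochondrion-specific protein of the large subunit, the response was 0.40 (SE 0.13, adjusted p = 0.0363), made of changes of 0.17 and -0.23 that were not called.

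**Figure D4:**
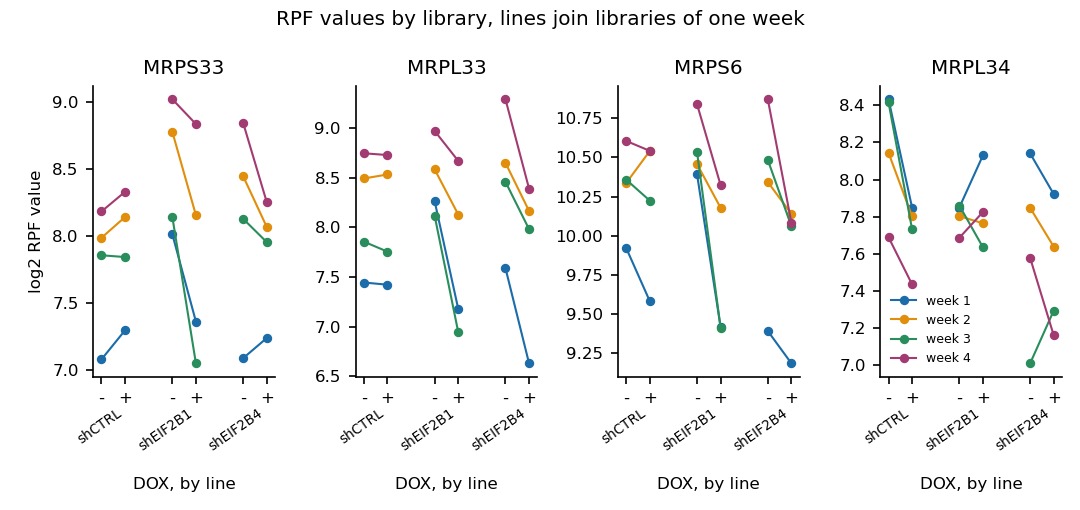
Log2 RPF values of MRPS33, MRPL33, MRPS6 and MRPL34 in each library by line and DOX, with coloured lines joining libraries of the same week. The week 1 and week 3 libraries of MRPS33 and MRPL33 lie below those of weeks 2 and 4 in both DOX conditions of shEIF2B1.

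MRPL20 was the member called higher in shEIF2B1 itself. Its RPF values there were 9.11, 9.20, 9.35 and 9.56 without and 10.00, 8.93, 10.90 and 9.20 with DOX. The libraries of weeks 1 and 3 were higher with DOX and those of weeks 2 and 4 lower. The change of 0.45 (SE 0.18, limma adjusted p = 0.0512) thus rests on 2 of 4 weeks, and the response of 0.57 was not called (adjusted p = 0.216). Its mean total RNA in the same cells was 12.91 ± 0.18 without and 12.98 ± 0.26 with DOX (SD, n = 4).

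Among the members that fell in RPFs of shCTRL, MRPL34 was followed by MRPS34, a mitochondrion-specific small-subunit protein. Its values were 10.77, 10.56, 10.99 and 10.34 without and 10.72, 10.05, 10.25 and 9.95 with DOX. The +DOX library was lower in each week, by little in week 1, and the groups overlapped through that week. MRPS34 fell by 0.42 (SE 0.11, limma adjusted p = 0.06). MRPS12, MRPS26 and MRPL41 fell by 0.40, 0.37 and 0.36 in shCTRL (adjusted p = 0.0729, 0.0516 and 0.0504). Other genes called lower there were the assembly factors MPV17L2 (-0.47), MRM1 (-0.46) and MRM2 (-0.41) and GTPBP6 (-0.31), which dissociates mitoribosomal subunits.

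In the other lists, 5 of 17 mitochondrial translation factors fell in RPFs in response to shEIF2B1, with a list median of -0.36, beside 15.3% of all genes called lower. They included SLIRP (-0.59), the elongation factor GFM1 (-0.58), the recycling factor MRRF (-0.55) and GFM2 (-0.44), which acts in recycling with it. Of 23 assembly factors 5 fell and 2 rose, a share near the 27.3% of all genes called in either direction. The GTPase GTPBP10 fell by 0.83, FASTKD2 by 0.75, MTERF3 by 0.58 and TFB1M, the dimethyltransferase of the small-subunit rRNA, by 0.42. NGRN and MRM2, the factors that rose, had responses of 0.42 and 0.28. Among the 5 mitoribosomal proteins named otherwise PTCD3 fell by 0.68 and AURKAIP1 rose by 0.29. No gene of these 3 lists was called in response to shEIF2B4 (limma), where 3 assembly factors and 1 of the proteins named otherwise had an unadjusted p under 0.05.

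GC3, the share of G or C at the third base of codons, ranged from 28.4% to 90.6% over the 77 members with a matched coding sequence, with a median of 56.4%. Of the 37 members at or under this median with RPF values, 19 fell and none rose in response to shEIF2B1, with a median of -0.36. Of the 37 above it, 1 fell and 2 rose, with a median of 0.03. Over all genes, not split by GC3, 15.3% were called lower and 27.3% in either direction in this response. For shEIF2B4 the medians were -0.22 and 0.04. In shCTRL the order was the opposite, with medians of -0.10 and -0.22 and with 2 and 12 members called lower (4.62% of all genes).

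Across the 74 members, Pearson's r between GC3 and the RPF response was 0.68 for shEIF2B1 and 0.73 for shEIF2B4, and it was -0.64 for the change in shCTRL. Over 10847 genes these values were 0.61, 0.52 and -0.26. Genes of one library are not independent replicates, and both responses contain the shCTRL libraries. With the trend of coding GC content removed from each library, 4 members were called in response to shEIF2B1 in place of 23, and 4 in shCTRL in place of 14.

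**Figure D5:**
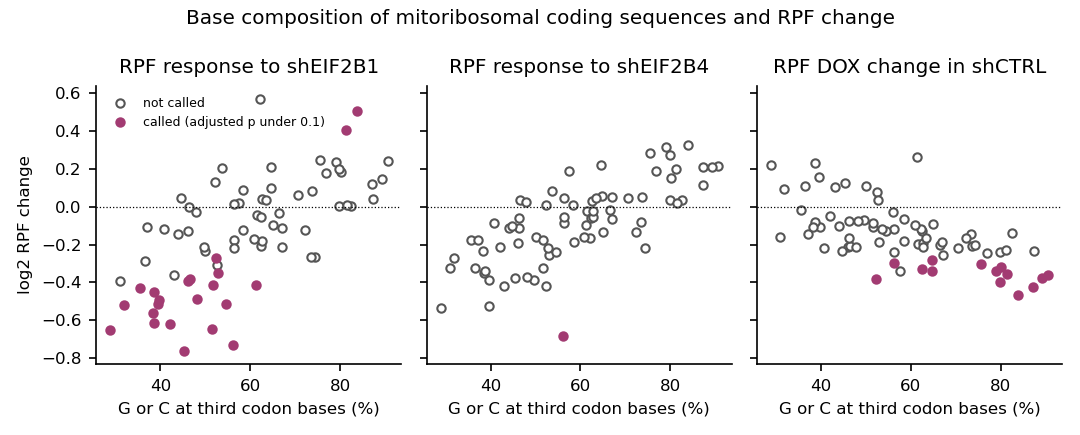
GC3 of each member (x axis, percent) against its log2 RPF response to shEIF2B1, response to shEIF2B4 and change with DOX in shCTRL. Filled points are called at an adjusted p under 0.1. The points climb from left to right in the first 2 panels and descend in the last.

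The week moved with the same property. In RPFs, the mean of the members with GC3 at or under the median minus the mean of those above it was -0.76 ± 0.16 in week 1, -0.11 ± 0.21 in week 2, -0.45 ± 0.24 in week 3 and 0.07 ± 0.15 in week 4 (log2, SD over 6 libraries). The distance between weeks 1 and 4 exceeded every change with DOX within a line and week, which lay between -0.31 and 0.29. The change of this difference with DOX was above 0 in 4 of 4 weeks of shCTRL (0.03 to 0.29) and below 0 in 4 of 4 weeks of shEIF2B1 (-0.31 to -0.07). In shEIF2B4 the changes were 0.01, -0.20, -0.26 and -0.03. Without DOX it was -0.54 ± 0.33 in shCTRL, -0.11 ± 0.38 in shEIF2B1 and -0.20 ± 0.48 in shEIF2B4 (SD, n = 4). Week by week, uninduced shEIF2B1 was above uninduced shCTRL by 0.36, 0.56, 0.42 and 0.40. The sign was the same in 4 of 4 weeks, and each distance was larger than any change of RPFs with DOX within a line and week. With DOX the distances between these lines were -0.05, 0.23, -0.03 and 0.14. The response to shEIF2B1 in this property therefore contains a distance that the lines had before induction. Uninduced shEIF2B4 differed from uninduced shCTRL by -0.07, 0.35, 0.73 and 0.35.

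In total RNA the same difference was 0.80 to 0.94 in the mean of each week. Single libraries stood apart from these means. It was 0.50 in week 2 of shEIF2B1 with DOX and 0.60 in week 3 of shEIF2B4 without DOX, and in the other 22 libraries it lay between 0.71 and 1.00. The changes with DOX in those weeks, -0.43 and 0.30, were larger in size than the other 10 in total RNA, which lay between -0.08 and 0.05. Why the weeks and lines differed in this property was not tested.

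Translation efficiency (TE) was the log2 RPF value minus the log2 total RNA value of the same lysate. Its mean over the 75 members was -0.47 ± 0.06 without and -0.46 ± 0.08 with DOX in shCTRL (SD, n = 4). It was -0.40 ± 0.06 and -0.45 ± 0.11 in shEIF2B1, and -0.49 ± 0.11 and -0.51 ± 0.08 in shEIF2B4. Paired by week, the mean was lower with DOX in 7 of 12 line-week pairs. In response to shEIF2B1 3 members fell and 3 rose (4.13% and 2.97% of all genes were called lower and higher), with a median of 0.01. Both counts were near the shares of all genes.

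Log2 TE of MRPS33 was -1.43, -0.75, -1.36 and -0.52 in shEIF2B1 without DOX and -2.10, -1.29, -2.26 and -0.67 with DOX. In shCTRL it was -2.28, -1.52, -1.67 and -1.47 without and -2.07, -1.18, -1.39 and -1.11 with DOX. TE was lower with DOX in each week of shEIF2B1 and higher with DOX in each week of shCTRL. As in RPFs, uninduced shEIF2B1 cells lay above uninduced shCTRL cells in each week, and that gap enters the response. The response was -0.86 (SE 0.21, limma adjusted p = 0.0407), and it was -0.58 for MRPS6 and -0.57 for MRPS36 (adjusted p = 0.0679 and 0.0959).

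MRPL34 had the largest rise in TE. Its log2 TE was -1.63, -1.73, -1.88 and -2.05 in shEIF2B1 without DOX and -1.02, -1.47, -1.64 and -1.69 with DOX. In shCTRL it was -1.00, -1.35, -1.47 and -2.03 without and -1.49, -1.54, -1.73 and -1.95 with DOX. TE was higher with DOX in each week of shEIF2B1 and lower in 3 of 4 weeks of shCTRL. Uninduced shEIF2B1 cells lay below uninduced shCTRL cells in each week, by little in the last, and that gap enters the response. The response was 0.59 (SE 0.16, limma adjusted p = 0.0562), beside 0.52 for MRPS12, the decoding-site protein of the small subunit, and 0.47 for MRPL43 (adjusted p = 0.0873 and 0.0779). No member was called in the TE response to shEIF2B4, in shCTRL or in the difference between the responses (limma, with 9, 13 and 6 members at an unadjusted p under 0.05). The 6 calls became 0 with the GC trend removed, and 0 without replicate 1, 3 or 4.

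Over the 24 RPF libraries, with the mean of each week removed, the mean of the members was followed most closely by GRPEL1 (Pearson's r = 0.96), a cofactor of the mitochondrial Hsp70, SRSF3 (0.96), a splicing factor, RPL24 (0.95), a cytosolic ribosomal protein, C1QBP (0.94), a mitochondrial matrix protein, and MRTO4 (0.93), a factor of cytosolic ribosome assembly. The median r of single members with that mean was 0.71, with 64 of 75 over 0.5, from -0.18 for MRPL20 to 0.93 for MRPL12. Over all genes the median was 0.12. The mean contains the members themselves, and all points share libraries.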

How the data were processed

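Libraries were grouped by the shRNA and treatment in the sample labels. Per the study's methods, the authors aligned reads to GENCODE v38 transcripts with bowtie2, quantified total RNA with RSEM, chose the transcript with most expression per gene, and counted RPFs on coding sequences after removal of rRNA, tRNA and mitochondrial RNA. Replicate 3 joins 2 sequencing runs. The deposited log2 values are regularized log2 values that the authors made with DESeq2, separately for RPFs and total RNA. They shrink genes of low count, so changes of low genes are understated. Depth per library is unknown, and a count test was not possible. Reads shared with processed pseudogenes were not examined. Per-sample columns not mapped to a sample numbered 0, and no sample was left out.

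Values were fitted across all genes in R 4.3.3 with limma 3.58.1 (lmFit, then eBayes with a mean-variance trend, two-sided), with the replicate as a block and, for a response, the product of shRNA and DOX (16 libraries). Changes within a line used 8 libraries, and the contrast of both responses 24. Benjamini-Hochberg adjustment ran over all genes of a table, with calls under 0.1, the study's threshold. Replicate numbers mark weeks, per the study's methods: after removal of group means, 52 of 60 same-number pairs of RPF libraries had a correlation over 0.1 (mean r 0.56), 37 of 60 in total RNA (0.18) and 55 of 60 in TE (0.54).

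Members and gene lists were chosen with earlier results of these data known. Named members were the 5 largest rises and falls among calls with the same direction in 4 of 4 weeks, for responses and for shCTRL, the stalk and exit tunnel proteins, and the 3 highest and lowest levels. From the related lists at most 4 called genes were named per response, and the 5 genes most like the members' mean. MRPL49, MRPL27, MRPS11, MRPL46, MRPS17, MRPL20, MRM2 as a factor that rose, and genes named from total RNA within knockdown lines were chosen after their values were seen. GC3 and coding lengths came from GENCODE v29, matched by transcript ID without version, for 77 of 78 members (not MRPS22) and 97.3% of genes in the RPF table. Alternatives were no block, no trend, the lowest 25% of genes left out, median centring, removal of the coding GC trend (lowess, span 0.3), a joint fit of all 24 libraries, the knockdown line without correction for shCTRL, a threshold of 0.05, and each replicate left out. Those for changes within the knockdown lines were chosen after seeing the data. Python 3.11.15, pandas 2.3.3 and matplotlib 3.10.9 were used.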

Additional observations from a re-analysis of the deposited data

Results flagged for a closer look

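Among 132 groups of 4 libraries (18 of them means over the members), 9 held a library whose gap to its nearest neighbour took a share of the group's range above Dixon's 95% critical value for 4 samples. Chance gives about 1 in 20 such groups. For the mean of the members, the RPF libraries of shCTRL +DOX were 8.82, 8.82, 8.81 and 8.97 in weeks 1 to 4 (ratio 0.9185), and the total RNA libraries of shEIF2B1 +DOX were 9.28, 9.29, 9.13 and 9.28 (ratio 0.9346).

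Among single members, MRPS6 RPFs in shEIF2B4 +DOX were 9.18, 10.14, 10.06 and 10.08 (ratio 0.9168). MRPS9 RPFs were 8.11, 8.07, 8.03 and 8.60 in shCTRL +DOX (ratio 0.8658) and 7.33, 8.69, 8.71 and 8.92 in shEIF2B4 -DOX (ratio 0.8564). MRPL43 RPFs were 9.18, 8.26, 8.25 and 8.18 (ratio 0.9233) and MRPS34 RPFs 10.71, 10.14, 10.11 and 10.13 (ratio 0.9527) in shEIF2B4 -DOX. In 4 of the 5 groups of single RPF members the library of week 1 stood apart. MRPL12 total RNA was 9.85, 9.84, 9.84 and 9.98 in shEIF2B1 -DOX (ratio 0.9285) and 9.62, 9.54, 9.53 and 9.55 in shEIF2B4 +DOX (ratio 0.833).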

How the results depend on the processing

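Values are members called. Without the replicate block the RPF response to shEIF2B1 had 0 in place of 23, the RPF response to shEIF2B4 0 in place of 1, the RPF changes 6 in shEIF2B1 (49), 0 in shEIF2B4 (24) and 0 in shCTRL (14), the total RNA responses 0 and 0 (1 each), total RNA in shCTRL 0 (3) and the TE response to shEIF2B1 0 (6). The block changed no other call count by over 1.5 times. With the coding GC trend removed, these were 4 for the RPF response to shEIF2B1, 0 for shEIF2B4, 4 for RPFs and 1 for total RNA in shCTRL, and 0 for the TE response to shEIF2B1. With all 24 libraries in one fit the RPF response to shEIF2B1 had 12, the total RNA response to shEIF2B4 0 and the TE response to shEIF2B1 0. Without the shCTRL correction the RPF responses had 49 and 24, the total RNA responses 44 and 43, and the TE response to shEIF2B4 1. Without the mean-variance trend shCTRL had 8 in RPFs and 1 in total RNA, and centring gave 1 in total RNA. Under 0.05, counts were 1 for RPFs in shCTRL, 0 for the RPF response to shEIF2B4, 0 for both total RNA responses and shCTRL total RNA, and 1 for the TE response to shEIF2B1.

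Leaving out each replicate in turn gave 8 to 23 and 0 to 10 for the RPF responses to shEIF2B1 and shEIF2B4. For RPF changes it gave 0 to 37 in shCTRL, 41 to 45 in shEIF2B1 and 2 to 46 in shEIF2B4. The total RNA responses had 0 to 3 and 0 to 1. Total RNA changes had 26 to 57, 17 to 48 and 0 to 47 in shEIF2B1, shEIF2B4 and shCTRL. TE had 0 to 11, 0 to 6 and 0 to 4 (responses to shEIF2B1 and shEIF2B4, and shCTRL). The cause was not tested. Member medians stayed below 0 in all 8 to 12 alternatives of every RPF and total RNA response and change. The 23 named results kept their sign throughout, and 23 were called with low genes left out, 21 with centring, 9 at 0.05, 5 with the GC trend removed and 0 without the block. Depth is unknown, so a change that was not called may be one these libraries could not show.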
